A study of Homo sapiens with 54 samples.

Results

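The genes described here are 10 immediate early genes, NR4A1, NR4A2, NR4A3, EGR1, EGR2, EGR3, IER2, IER3, IER5 and ARC, followed across 54 RNA sequencing libraries of BT549 cells, which come from a triple-negative breast cancer and are an established human line. They were taken by symbol from the 26517 gene symbols of each deposited count table, and all 10 passed the filter on low counts in all 3 experiments. Immediate early genes are transcribed within minutes of a growth factor, serum, stress or calcium signal, without new protein having to be made first. ERK signalling reaches many of them through serum response factor (SRF) and its ETS-family partners on CArG boxes, and cAMP or calcium signals through CREB on cAMP response elements (CREs). Their RNAs are short-lived, so their levels follow the signal closely. The NR4A genes encode nuclear receptors without a known natural ligand and the EGR genes encode zinc-finger transcription factors. IER3 encodes a regulator of apoptosis and ERK signalling, IER5 a co-factor of the heat shock factor HSF1, IER2 a nuclear protein of less certain function, and ARC a cytoskeleton-associated protein best known at neuronal synapses.

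The libraries form 18 groups of 3 in 3 experiments. In the GATA6 experiment (12 libraries), transfection with control siRNA (siCtl) or with a pool targeting GATA6, a transcription factor (siGATA6), lasted 72 h, and the synthetic glucocorticoid dexamethasone (DEX, 500 nM) or its vehicle was given for 2 h. In the BRM014 experiment (24 libraries), 10 µM BRM014, which blocks the SWI/SNF ATPases BRG1 and BRM, or its solvent DMSO was combined with 500 nM DEX or left without it, over 4 h or 24 h. Only the sample labels give 24 h. The treatment protocol gives DEX as 2 h or 4 h, and BRM014 as 4 h. That protocol is also the source of the BRM014 dose. In the AP-1 experiment (18 libraries), siCtl, siFRA1 (targeting FRA1, the FOSL1 product) or siJUN (targeting JUN) was combined with vehicle or 500 nM DEX, for times that the labels do not state. Headers of the AP-1 tables carry other library numbers than the deposited ones, and the deposited ones were used. The labels describe all cells as wild type, and say nothing of separate cultures in the AP-1 experiment, where p-values may measure technical spread only. MDA-MB-231 cells were not analysed here. Levels are in CPM (read counts relative to the library total over the tested genes, scaled with TMM factors), and are compared only within an experiment, since the labels give total RNA for the GATA6 and BRM014 libraries and polyA RNA for the AP-1 libraries. The extraction protocol of all 54 libraries names rRNA depletion and no polyA selection. The RNAs RN7SK and RNA45S5, which lack a polyA tail, had group means of 82.2 to 101.9 and 77.4 to 97.7 CPM in the AP-1 libraries, which goes against the polyA label. In the BRM014 libraries they were at 0.880 to 2.34 and 10.3 to 16.8 CPM, and in the GATA6 libraries at 2.65 to 8.66 and 11.3 to 38.9 CPM.

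RefSeq promoter windows were found for 6 of the 10 genes (9 windows, GRCh38.p14): NR4A1, NR4A3, EGR1, EGR2, IER2 and IER5. NR4A2, IER3, EGR3 and ARC had none. The 250 bases before the annotated start were searched on both strands for the CArG box (by name), the CRE TGACGTCA, the partial CRE TGACGT, the AP-1 site TGANTCA, the EGR site GCGNGGGCG, the NR4A site AAAGGTCA, TATAAA and the palindromic glucocorticoid receptor site (by name). A partial CRE inside a full CRE would count under both. EGR1 and EGR2 are shown because their levels moved most alike among the EGR genes, NR4A3 because it holds several partial CREs, and IER2 because it fell in most DEX comparisons. Capitals mark matches to any of these motifs, read 5′ to 3′ on the strand of the gene.
EGR1 (chr5:138465229-138465478, plus strand): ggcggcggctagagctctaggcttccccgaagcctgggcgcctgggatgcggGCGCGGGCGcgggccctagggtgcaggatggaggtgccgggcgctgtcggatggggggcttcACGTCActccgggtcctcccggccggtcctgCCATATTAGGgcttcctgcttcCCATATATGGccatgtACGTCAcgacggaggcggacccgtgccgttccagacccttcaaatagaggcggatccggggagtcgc
EGR2 (chr10:62816367-62816616, minus strand): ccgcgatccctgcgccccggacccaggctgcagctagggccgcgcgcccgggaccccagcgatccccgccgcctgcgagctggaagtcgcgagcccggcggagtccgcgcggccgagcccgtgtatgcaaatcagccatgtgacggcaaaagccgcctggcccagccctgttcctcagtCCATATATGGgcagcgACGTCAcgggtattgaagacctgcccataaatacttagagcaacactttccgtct
NR4A3 (chr9:99821635-99821884, plus strand): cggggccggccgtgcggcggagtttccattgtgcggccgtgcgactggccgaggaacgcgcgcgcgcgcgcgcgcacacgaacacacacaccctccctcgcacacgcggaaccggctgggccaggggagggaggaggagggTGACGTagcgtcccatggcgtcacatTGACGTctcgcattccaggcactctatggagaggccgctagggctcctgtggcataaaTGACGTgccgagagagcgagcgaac
IER2 (chr19:13150161-13150410, plus strand): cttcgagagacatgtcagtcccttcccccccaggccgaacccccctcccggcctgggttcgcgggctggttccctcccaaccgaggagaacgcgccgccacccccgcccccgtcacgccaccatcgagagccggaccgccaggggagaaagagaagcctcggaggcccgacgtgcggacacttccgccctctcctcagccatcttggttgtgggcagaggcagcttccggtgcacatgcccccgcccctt

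The EGR1 window held 2 CArG boxes, the first bases of which lay at -105 and -83 from the start. It also held 2 partial CREs (-136 and -67) and an EGR site (-198). One of 3 EGR2 windows held a CArG box at -71 and a partial CRE at -55. The NR4A3 window held 3 partial CREs, at -109, -83 and -25. CArG boxes were found in 1.16% of all 35116 promoter windows searched the same way, partial CREs in 7.1% and EGR sites in 8.41%. No window of the 6 genes held a full CRE (1.65% of all windows), an AP-1 site (6.57%), an NR4A site (1.05%), TATAAA (10.7%) or the receptor palindrome (0.327%). A match is a run of letters, not a shown binding site.

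In GRCh38 the 10 protein-coding genes lie on 9 chromosomes. NR4A1 is on chromosome 12 (52022832 to 52059507), NR4A2 on chromosome 2 (156324432 to 156342348) and NR4A3 on chromosome 9 (99821855 to 99866891). EGR1 is on chromosome 5 (138465490 to 138469315), EGR2 on chromosome 10 (62811996 to 62919900) and EGR3 on chromosome 8 (22687659 to 22693302). IER2 is on chromosome 19 (13150415 to 13154908), IER3 on chromosome 6 (30743199 to 30744554), IER5 on chromosome 1 (181088712 to 181092899) and ARC on chromosome 8 (142611044 to 142614472). NR4A1, EGR3, IER2 and IER3 each overlap 1 gene of the opposite strand in GENCODE v29. The strand setting of the counting is not given in the sources used here, so reads of those genes and of their antisense partners cannot be told apart.

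Total counts per library ranged from 12888724 to 30530736, 13243316 to 29339329 and 10186607 to 16352524 in the GATA6, the BRM014 and the AP-1 libraries, with 13897, 14547 and 13658 genes tested. The biological coefficient of variation was 5.57%, 18.8% and 9.80%. The siRNA targets were lower with vehicle, GATA6 in siGATA6 (log2FC -3.04, SE 0.0681, adjusted p = 9.37e-19), FOSL1 in siFRA1 (log2FC -1.88, SE 0.181, adjusted p = 1.21e-05) and JUN in siJUN cells (log2FC -1.50, SE 0.213, adjusted p = 9.31e-04). The line's mesenchymal genes VIM, FN1 and SPARC had group means between 203.7 and 2351 CPM, and the epithelial EPCAM and the hormone receptor genes ESR1 and PGR stayed at or under 0.151 CPM. ERBB2 was at 58.7 to 86.1 CPM and CDH1 at 1.22 to 15.1 CPM. Immune and endothelial markers were at or near 0 (CD3E, CDH5 and PECAM1 at or under 0.235 CPM, PTPRC at or under 1.82 CPM). In siGATA6 cells the RNAs RN7SK (log2FC 1.48, SE 0.322, adjusted p = 0.0076) and RNA45S5 (log2FC 1.61, SE 0.339, adjusted p = 0.00961) were higher with vehicle and with DEX. Their part in the siGATA6 results was not tested.

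**Figure D1:**
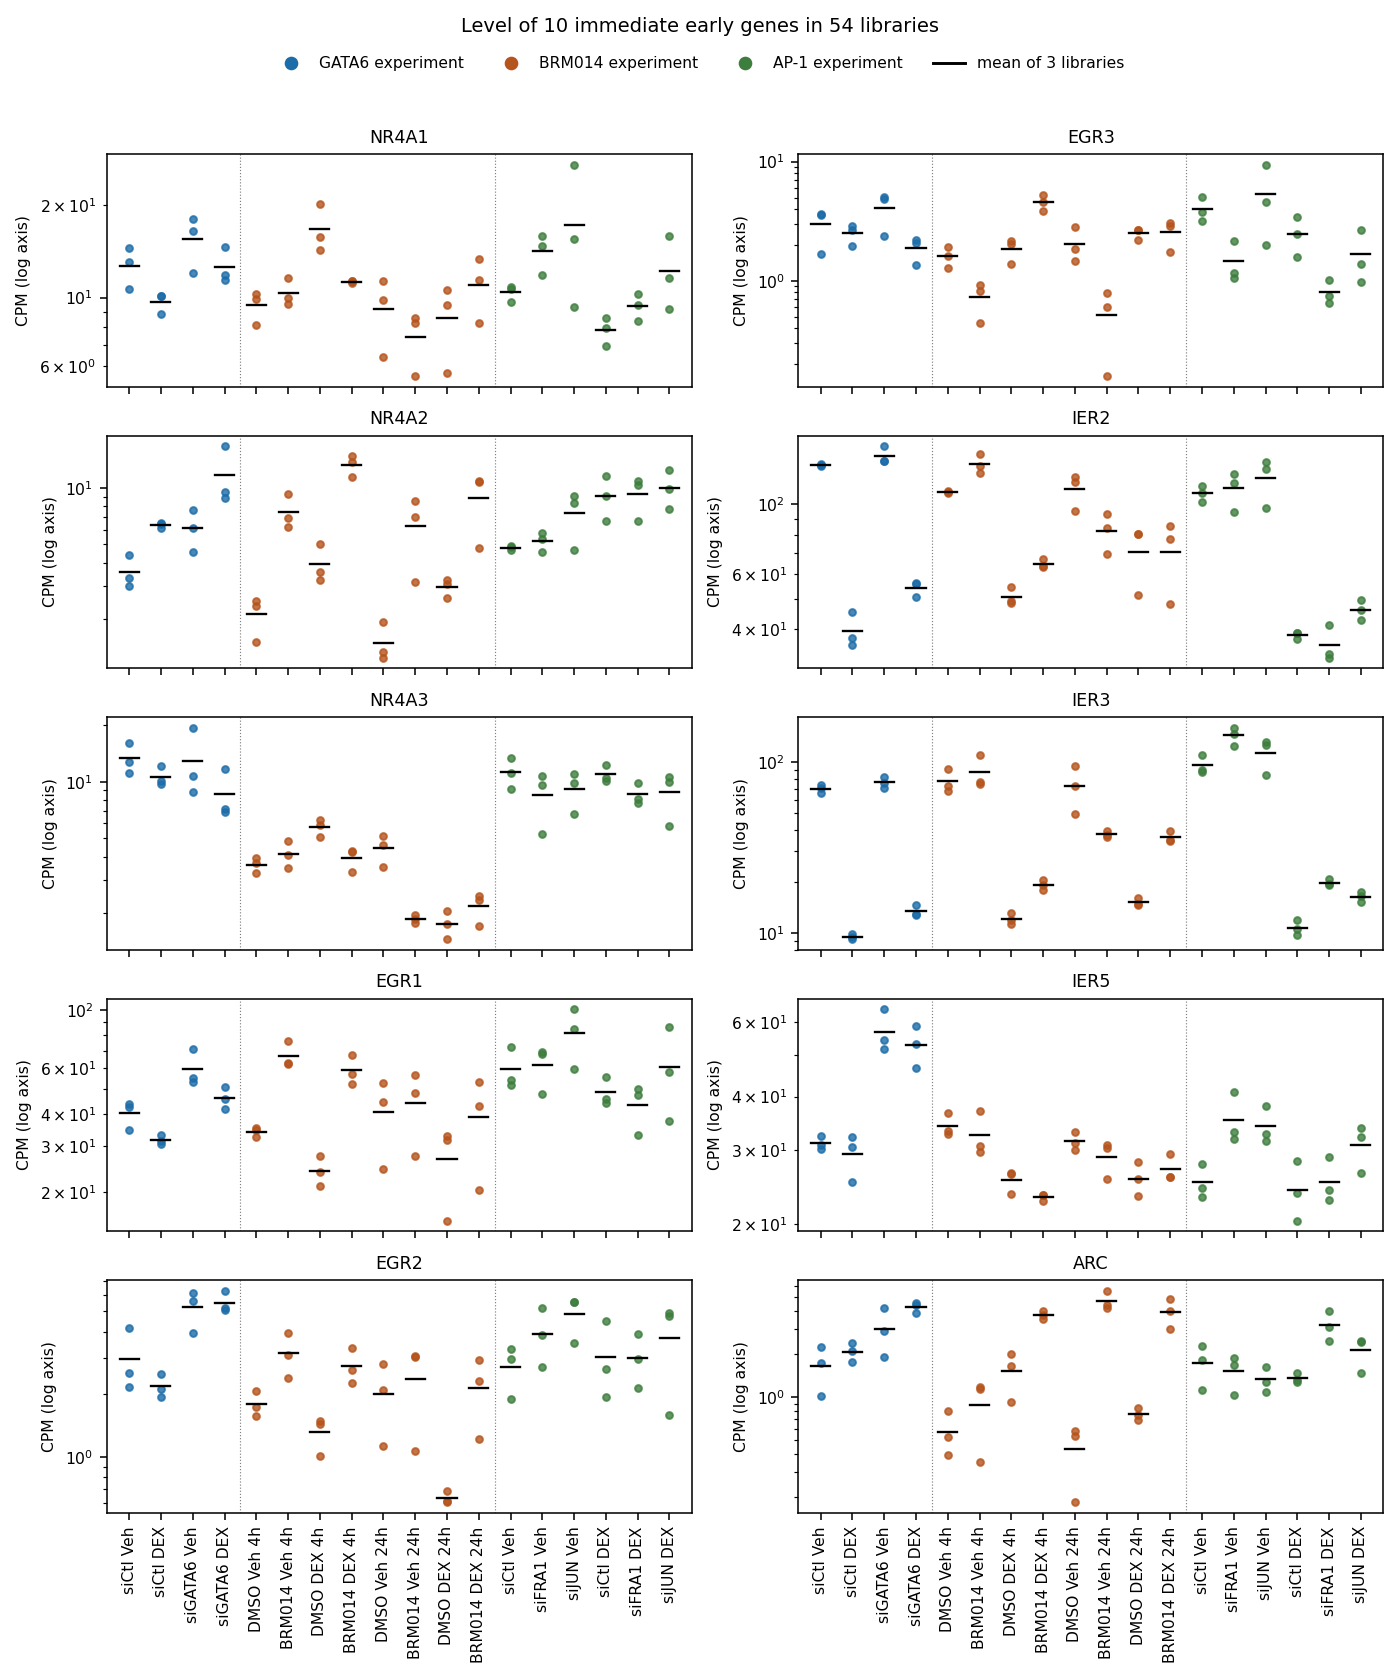
Level of each gene in CPM (log axis) in the 54 libraries, one panel per gene and one column per group; points are libraries, colours the experiments and black bars the mean of 3. IER3 and IER2 drop in the DEX columns except with BRM014 for 24 h, while NR4A2 stands higher in the BRM014 columns.

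In the vehicle-treated siCtl libraries of the GATA6 experiment, levels per kb of exon put IER3 first at 51.5 ± 2.73 CPM per kb and IER2 second at 43.4 ± 0.215 CPM per kb (SD, n = 3). EGR1 followed at 12.8 ± 1.58 and IER5 at 7.41 ± 0.271 CPM per kb. NR4A3 (1.77 to 2.55 CPM per kb) and NR4A1 (1.46 to 1.98) overlapped. Of the lowest 4, EGR2 (0.588 to 1.13) overlapped NR4A2 (0.752 to 1.11), EGR3 (0.349 to 0.746) and ARC (0.340 to 0.747 CPM per kb). EGR3 and ARC overlapped each other, and NR4A2 lay just above both. EGR3 and ARC were therefore read from few reads, down to 4 counts in a BRM014 24 h library for EGR3 and 5 counts in a DMSO 24 h library for ARC.

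A gene was called where edgeR's quasi-likelihood test gave a Benjamini-Hochberg adjusted p under 0.05 over all genes tested, and the same test gives every adjusted p below unless another is named. Counts are read against the share of all genes called in that direction. In these bulk libraries fewer cells expressing a gene and less RNA per cell cannot be told apart. In siCtl cells, 2 of the 10 genes fell after 2 h of DEX, IER2 and IER3, where 8.74% of all genes rose and 7.2% fell. With the replicate number as a block, 6 of the 10 were called, and calls over all genes went from 1215 higher and 1001 lower to 1656 higher and 1511 lower. In siGATA6 cells, NR4A2 rose and EGR3, IER2 and IER3 fell (all genes 7.98% and 7.96%), and 8 were called with the block, where calls over all genes went from 1109 and 1106 to 1536 and 1639. siGATA6 against siCtl with vehicle gave 4 rises, in EGR1, EGR2, IER5 and ARC (all genes 12.1% and 11.6%). With DEX, siGATA6 cells were higher in 7 of 10, NR4A2, EGR1, EGR2, IER2, IER3, IER5 and ARC (all genes 11.1% and 11.5%). RN7SK (log2FC 1.66, SE 0.332, adjusted p = 0.00495) and RNA45S5 (log2FC 1.61, SE 0.335, adjusted p = 0.00942) were higher in the same siGATA6 libraries. None of the 10 had a called siGATA6 by DEX interaction in the edgeR fit without a block or in DESeq2. In that edgeR fit 0.0935% of all genes were called higher and 0.245% lower. An unadjusted p under 0.05 was found for 2 of the 10 and for 980 of the 13897 genes tested, and DESeq2 called 82 genes. Some alternative edgeR settings called this interaction for IER2, and the block also for IER3, as given below.

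Comparisons of BRM014 and of DEX at the same time share their DMSO libraries. In DMSO cells, DEX for 4 h gave rises in NR4A1, NR4A3 and ARC and falls in IER2, IER3 and IER5 (all genes 7.77% higher and 4.78% lower). At 24 h the 5 calls were all falls, in NR4A3, EGR2, IER2, IER3 and IER5 (all genes 12.6% and 13%). In BRM014-treated cells, DEX for 4 h raised EGR3 and ARC and lowered the 3 IER genes (all genes 3.79% and 2.33%), while at 24 h EGR3 was the single call, a rise (all genes 7.55% and 6.21%). BRM014 without DEX raised NR4A2 alone at 4 h (all genes 4.61% and 4.06%). At 24 h it raised NR4A2 and ARC and lowered NR4A3, EGR3 and IER3 (all genes 15.1% and 16.4%). The BRM014 by DEX interaction was called for EGR3 at 4 h (all genes 0.564% and 1.73%) and for NR4A3, EGR3 and IER3 at 24 h (all genes 3.77% and 2.78%), each above 0. The DEX effect was lower at 24 h than at 4 h for NR4A3 (all genes 2.61% higher and 6.28% lower). The BRM014 effect was lower at 24 h for NR4A3 and IER3 and higher for ARC (all genes 2.89% and 6.55%). Between DMSO at 24 h and at 4 h no member was called in edgeR or DESeq2 and 0 had an unadjusted p under 0.05 (all genes 0% and 0%, with 174 at an unadjusted p under 0.05 and 0 in DESeq2). The 174 of 14547 genes are under the share of 0.05 that evenly spread p-values would give. The lack of calls therefore does not show equal levels.

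In the AP-1 experiment, where the siCtl vehicle libraries serve several comparisons, DEX raised NR4A2 and lowered IER2 and IER3 in siCtl cells (all genes 3.46% and 2.05%). In siFRA1 cells ARC rose and IER2, IER3 and IER5 fell (all genes 3.17% and 1.76%). In siJUN cells EGR3, IER2 and IER3 fell (all genes 3.46% and 2.23%). siFRA1 with vehicle raised IER3 and IER5 (all genes 5.54% and 5.28%). siJUN with vehicle had 0 calls among the 10 in edgeR (all genes 3.68% and 3.14%) and 1 in DESeq2, which called 1114 genes. An unadjusted p under 0.05 was found for 4 of the 10 and for 2788 of the 13658 genes tested. The interactions of DEX with siFRA1 (all genes 0% and 0%) and with siJUN (all genes 0% and 0%) had 0 calls among the 10 in edgeR and DESeq2. Unadjusted p-values under 0.05 numbered 2 of the 10 for siFRA1 and 1 for siJUN. Over all genes they numbered 302 and 378, and DESeq2 called 2 and 0 genes. Both numbers are under the share of 0.05 that evenly spread p-values would give. A missing call here therefore does not show that there was no difference.

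**Figure D2:**
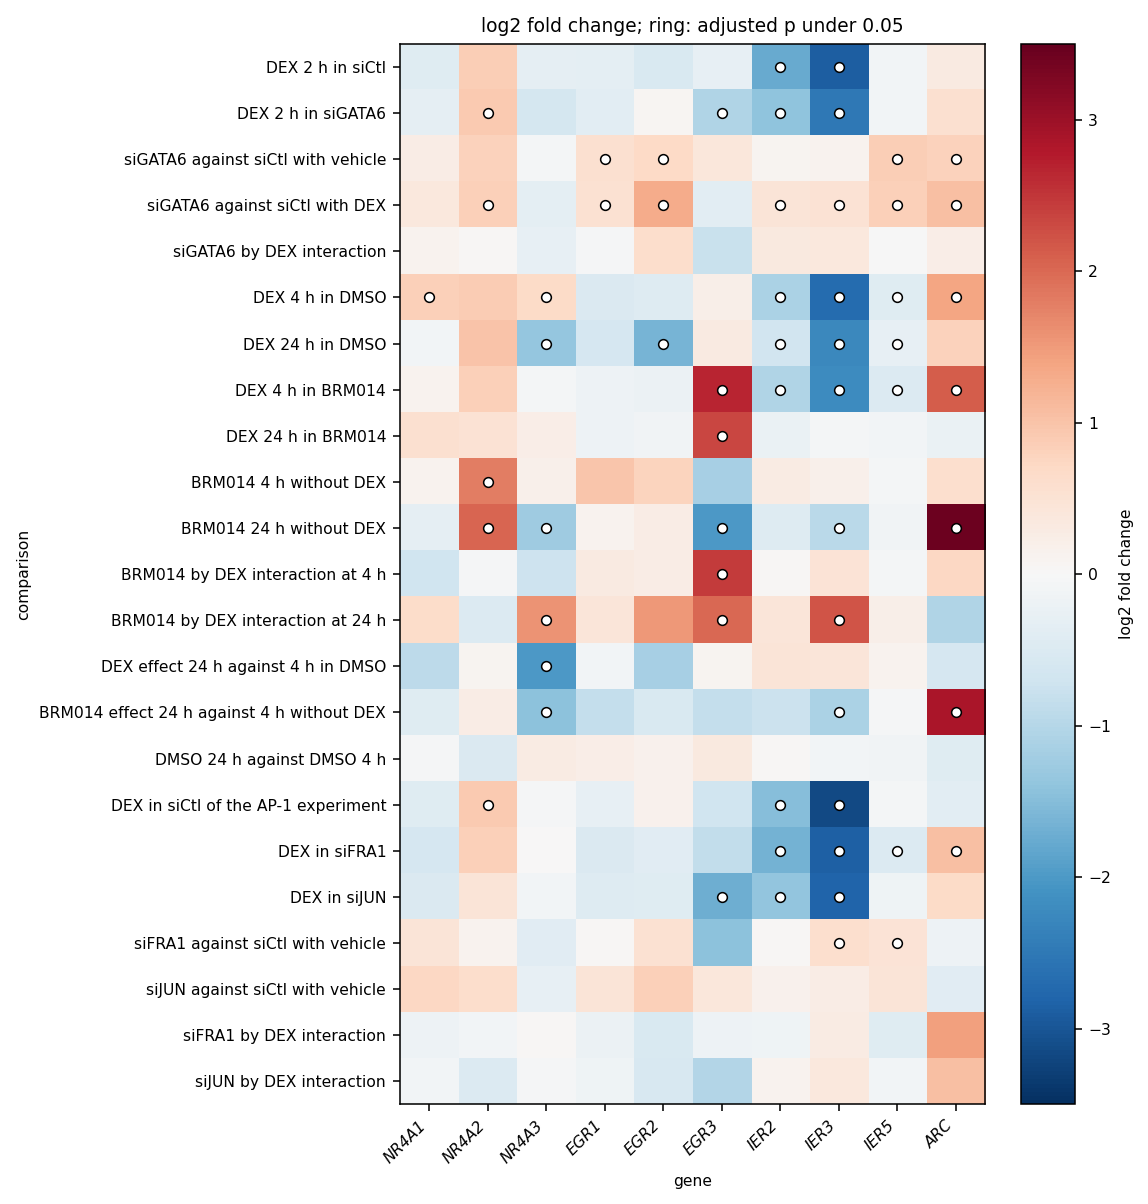
Log2 fold change of the 10 genes (columns) in the 23 comparisons (rows), red higher and blue lower, with a ring where the adjusted p was under 0.05. IER2 and IER3 carry rings in 8 of the 9 rows that set DEX against vehicle.

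IER3, the regulator of apoptosis and ERK signalling, fell with DEX in 8 of 9 comparisons, as IER2 did. In siCtl cells with vehicle it stood at 73.3, 66.0 and 70.1 CPM, and after 2 h of DEX at 9.79, 9.41 and 9.21 CPM, a 7.37-fold fall (log2FC -2.88, SE 0.0760, adjusted p = 4.96e-18). All vehicle libraries lay far above all DEX libraries, and only 3 of the 13897 genes tested had a lower log2FC. In siGATA6 cells it went from 82.3, 70.5 and 75.6 to 14.6, 12.9 and 12.8 CPM (log2FC -2.51, SE 0.0705, adjusted p = 1.08e-17). The siGATA6 libraries with DEX all lay above the siCtl libraries with DEX (log2FC 0.50, SE 0.0869, adjusted p = 2.02e-04), while with vehicle the groups overlapped (log2FC 0.12, SE 0.0609, adjusted p = 0.153). With the block the vehicle difference was called (log2FC 0.12, adjusted p = 0.0416). The siGATA6 by DEX interaction was called with the block (log2FC 0.37, adjusted p = 0.022) but not without it.

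The same fall in IER3 was seen in the AP-1 experiment. With vehicle the siCtl libraries held 89.5, 86.9 and 110.0 CPM and with DEX 11.9, 10.5 and 9.68 CPM (log2FC -3.16, SE 0.159, adjusted p = 7.44e-11), and 1 gene of 13658 had a lower log2FC. In siFRA1 cells the level was higher from the start, at 158, 125 and 146 CPM with vehicle (log2FC 0.58, SE 0.131, adjusted p = 0.00744 against siCtl), and 19.3, 20.7 and 19.0 CPM with DEX (log2FC -2.86, SE 0.148, adjusted p = 1.67e-10). In siJUN cells it went from 126, 84.4 and 130.3 to 17.3, 15.1 and 16.5 CPM (log2FC -2.80, SE 0.149, adjusted p = 1.63e-10), the lowest log2FC of all genes tested. Vehicle and DEX libraries did not overlap under any of the siRNAs. siJUN with vehicle was not called (log2FC 0.25, interval -0.01 to 0.51), but was called without siJUN vehicle library 2 (log2FC 0.42, adjusted p = 0.023).

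In the BRM014 experiment IER3 depended on the inhibitor and on time. At 4 h, DMSO libraries stood at 91.3, 68.1 and 72.4 CPM and DMSO libraries with DEX at 11.8, 11.3 and 13.0 CPM (log2FC -2.68, SE 0.185, adjusted p = 8.67e-10). With BRM014 the levels were 111, 76.8 and 74.3 CPM without and 20.3, 17.95 and 19.0 CPM with DEX (log2FC -2.19, SE 0.181, adjusted p = 4.76e-08). DEX thus separated the groups with and without the inhibitor at 4 h. At 24 h DMSO cells fell from 94.2, 72.6 and 49.6 to 14.6, 15.9 and 14.8 CPM with DEX (log2FC -2.25, SE 0.182, adjusted p = 1.06e-08). BRM014 alone brought IER3 to 37.6, 39.3 and 36.4 CPM at 24 h (log2FC -0.93, SE 0.174, adjusted p = 2.93e-04), below every DMSO library and above every DMSO library with DEX. Adding DEX left 35.0, 39.5 and 34.4 CPM (log2FC -0.06, interval -0.40 to 0.28), and these groups overlapped. The difference between the DEX effects at 24 h was called (log2FC 2.20, SE 0.249, adjusted p = 9.45e-06), with a range of 1.96 to 2.41 over the alternative settings. At 4 h that difference was not called (log2FC 0.49, interval 0.01 to 0.97). The BRM014 effect was lower at 24 h than at 4 h (log2FC -1.11, SE 0.244, adjusted p = 0.0051), a call lost with all number 2 libraries left out (log2FC -1.12, adjusted p = 0.095) and in a fit of the compared groups alone (log2FC -1.10, adjusted p = 0.0534).

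**Figure D3:**
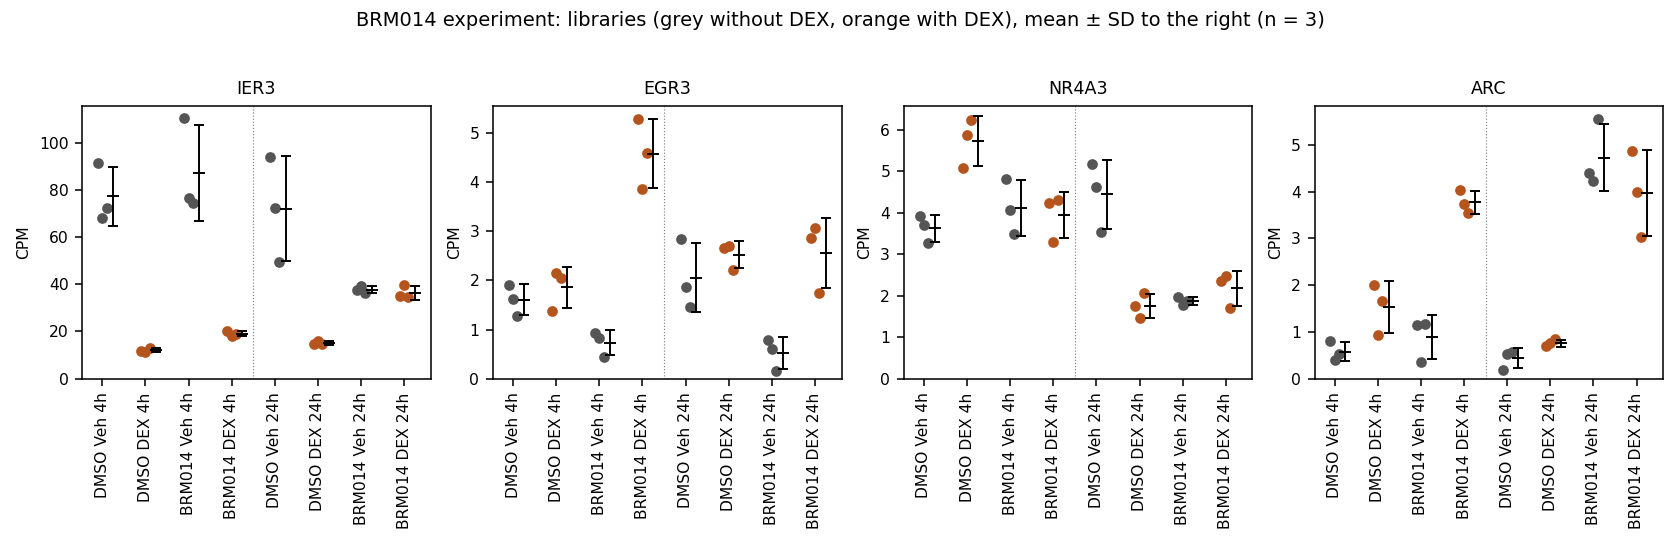
IER3, EGR3, NR4A3 and ARC in CPM in the 8 groups of the BRM014 experiment, grey points without and orange points with DEX, with the mean ± SD (n = 3) to the right of each group. IER3 with BRM014 for 24 h sits between the DMSO groups with or without DEX, and EGR3 is lowest with BRM014 alone.

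IER2, the nuclear immediate early protein, fell with DEX in 8 of 9 comparisons. In siCtl cells 3 vehicle libraries at 134, 133 and 133 CPM were followed by 35.7, 45.2 and 37.5 CPM after 2 h of DEX (log2FC -1.75, SE 0.0704, adjusted p = 1.86e-13). siGATA6 cells went from 153, 138 and 138 to 56.2, 55.9 and 50.6 CPM (log2FC -1.40, SE 0.0675, adjusted p = 3.65e-12). With DEX the siGATA6 libraries stood above all siCtl libraries (log2FC 0.45, SE 0.0723, adjusted p = 1.31e-04). The siGATA6 by DEX interaction was not called (log2FC 0.35, interval 0.16 to 0.54). It was called without siCtl DEX library 2 (log2FC 0.47, adjusted p = 0.00947), with no filter on low counts (log2FC 0.37, adjusted p = 0.0245) and with the block (log2FC 0.36, adjusted p = 0.02). In the AP-1 experiment the vehicle levels were 109, 102 and 115 CPM in siCtl, 117, 94.7 and 125 in siFRA1 and 129.6, 97.0 and 136 CPM in siJUN cells. With DEX they were 39.0, 37.1 and 39.0, 32.5, 33.4 and 41.1 and 46.2, 42.9 and 49.5 CPM, and no DEX library reached a vehicle library of the same siRNA. The log2FC values were -1.50 (SE 0.123, adjusted p = 3.39e-08), -1.66 (SE 0.123, adjusted p = 9.65e-09) and -1.39 (SE 0.120, adjusted p = 7.97e-08).

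IER2 also fell with DEX in DMSO cells at both times and in BRM014 cells at 4 h, and the difference between its DEX effects at 24 h and 4 h was not called (log2FC 0.45, interval -0.03 to 0.93). At 4 h DMSO libraries held 109, 109 and 109.9 CPM and 48.5, 49.1 and 54.6 CPM with DEX (log2FC -1.11, SE 0.176, adjusted p = 9.37e-05). BRM014 libraries held 132, 125 and 145 CPM and 63.6, 66.8 and 63.0 CPM with DEX (log2FC -1.06, SE 0.175, adjusted p = 3.39e-04). The DMSO levels at 24 h were 122, 118 and 94.99 CPM without and 80.2, 80.6 and 51.2 CPM with DEX (log2FC -0.66, SE 0.174, adjusted p = 0.00758), and number 3 was the lowest library in both. That call was lost with all number 2 libraries left out (log2FC -0.72, adjusted p = 0.0732) and in a fit of the compared groups alone (log2FC -0.65, adjusted p = 0.083). With BRM014 at 24 h the level was 83.8, 93.1 and 69.5 CPM, all below the DMSO libraries but not called (log2FC -0.44, adjusted p = 0.0571), and it was called without BRM014 24 h library 2 or DMSO 24 h library 3 (log2FC -0.55 to -0.54, adjusted p = 0.0357 to 0.0446), with DESeq2 size factors (log2FC -0.46, adjusted p = 0.0472) and by the DESeq2 Wald test (log2FC -0.46, adjusted p = 0.0416). Adding DEX gave 85.3, 77.3 and 48.2 CPM (log2FC -0.22, interval -0.56 to 0.12). Neither interaction with BRM014 was called for IER2, at log2FC 0.05 (interval -0.43 to 0.53) at 4 h and 0.43 (interval -0.05 to 0.92) at 24 h. The difference between the BRM014 effects at 24 h and 4 h (log2FC -0.74, adjusted p = 0.0623) was called without BRM014 24 h library 2 or DMSO 24 h library 3 (log2FC -0.85 to -0.84, adjusted p = 0.0415 to 0.0496), by the DESeq2 Wald test (log2FC -0.74, adjusted p = 0.0451) and in a fit of the compared groups alone (log2FC -0.73, adjusted p = 0.0143).

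IER5, the HSF1 co-factor, changed most with GATA6 siRNA. With vehicle it was at 32.3, 30.8 and 30.1 CPM in siCtl and 64.2, 54.3 and 51.9 CPM in siGATA6 cells (log2FC 0.87, SE 0.102, adjusted p = 2.64e-05). After DEX the levels were 32.1, 30.4 and 25.2 and 58.5, 53.3 and 46.7 CPM (log2FC 0.85, SE 0.103, adjusted p = 3.74e-05), so the siGATA6 libraries lay above all siCtl libraries in both states. DEX itself moved it little within either siRNA, with log2FC -0.08 (interval -0.29 to 0.13) and -0.11 (interval -0.30 to 0.08). In DMSO cells IER5 was at 36.6, 32.6 and 33.2 CPM at 4 h and 23.6, 26.4 and 26.3 CPM with DEX (log2FC -0.42, SE 0.0991, adjusted p = 0.00488). At 24 h the levels were 31.1, 30.0 and 33.1 and 23.3, 28.0 and 25.5 CPM (log2FC -0.29, SE 0.0991, adjusted p = 0.0335), again without overlap. The 24 h call was lost without DMSO with DEX 24 h library 1 or 3 or DMSO 24 h library 1 or 3 (log2FC -0.30 to -0.23, adjusted p = 0.0673 to 0.151), with no filter on low counts (log2FC -0.29, adjusted p = 0.0885) and in a fit of the compared groups alone (log2FC -0.28, adjusted p = 0.188). In BRM014 cells at 4 h it went from 30.6, 37.1 and 29.7 to 22.8, 23.4 and 23.5 CPM (log2FC -0.48, SE 0.0992, adjusted p = 0.00295), a call lost with all number 2 libraries left out (log2FC -0.38, adjusted p = 0.139).

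Among AP-1 libraries, siFRA1 raised IER5 from 27.8, 23.2 and 24.4 to 41.1, 31.7 and 32.9 CPM with vehicle (log2FC 0.49, SE 0.133, adjusted p = 0.0214). The call was lost without siCtl vehicle library 2 or 3 or siFRA1 vehicle library 1 (log2FC 0.36 to 0.47, adjusted p = 0.0653 to 0.145). DEX then lowered it to 22.8, 28.8 and 24.1 CPM (log2FC -0.48, SE 0.133, adjusted p = 0.0375), a call lost without siFRA1 DEX library 1 or 3 or siFRA1 vehicle library 1 or 3 (log2FC -0.52 to -0.36, adjusted p = 0.0512 to 0.293) and in a fit of the compared groups alone (log2FC -0.48, adjusted p = 0.0641). siJUN cells with vehicle held 38.0, 31.4 and 32.7 CPM, all above siCtl but not called (log2FC 0.44, SE 0.134, adjusted p = 0.0505), and were called with DESeq2 size factors (log2FC 0.45, adjusted p = 0.0467), by the DESeq2 Wald test (log2FC 0.45, adjusted p = 0.0296), with no filter on low counts (log2FC 0.44, adjusted p = 0.0378) and in a fit of the compared groups alone (log2FC 0.45, adjusted p = 0.0375).

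NR4A2 was above vehicle in all 9 DEX comparisons and called in 2 of them in the fit without a block. The block and some other settings called it in further comparisons. In siCtl cells it was at 4.39, 2.98 and 3.31 CPM with vehicle and 6.53, 6.16 and 6.46 CPM after 2 h of DEX (log2FC 0.87, SE 0.304, adjusted p = 0.0864). The groups did not overlap, and the difference was called with the block (log2FC 0.86, adjusted p = 3.89e-05) and by the DESeq2 Wald test (log2FC 0.85, adjusted p = 0.0348) and in a fit of the compared groups alone (log2FC 0.87, adjusted p = 2.38e-04). siGATA6 cells went from 7.69, 4.58 and 6.16 to 16.7, 8.87 and 9.50 CPM (log2FC 0.91, SE 0.247, adjusted p = 0.0282). That call was lost without siGATA6 vehicle library 2 or 3 (log2FC 0.73 to 0.92, adjusted p = 0.0888 to 0.0944), with no filter on low counts (log2FC 0.92, adjusted p = 0.0695) and in a fit of the compared groups alone (log2FC 0.91, adjusted p = 0.149). Against siCtl, siGATA6 cells were higher with DEX (log2FC 0.84, SE 0.253, adjusted p = 0.0364), a call lost without siCtl DEX library 1, 2 or 3 (log2FC 0.81 to 0.85, adjusted p = 0.0953 to 0.111), with no filter on low counts (log2FC 0.84, adjusted p = 0.0831) and in a fit of the compared groups alone (log2FC 0.83, adjusted p = 0.085). With vehicle the siGATA6 groups also stood apart (log2FC 0.79, adjusted p = 0.0817) and were called with the block (log2FC 0.78, adjusted p = 9.49e-05) and without siGATA6 vehicle library 2 (log2FC 0.98, adjusted p = 0.0415), by the DESeq2 Wald test (log2FC 0.79, adjusted p = 0.0405) and in a fit of the compared groups alone (log2FC 0.78, adjusted p = 0.00607).

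BRM014 raised NR4A2 at both times. At 4 h DMSO libraries held 2.49, 2.34 and 1.51 CPM and BRM014 libraries 9.26, 6.90 and 6.22 CPM (log2FC 1.80, SE 0.342, adjusted p = 0.00179), a 3.48-fold rise and the only call among the 10 genes in that comparison. It was lost with all number 2 libraries left out (log2FC 1.92, adjusted p = 0.0692). At 24 h the levels were 1.92, 1.24 and 1.33 and 8.56, 7.03 and 3.14 CPM (log2FC 2.05, SE 0.348, adjusted p = 1.21e-04). No BRM014 library overlapped a DMSO library at either time. With DEX, DMSO cells reached 3.23, 3.55 and 5.04 CPM at 4 h (log2FC 0.89, adjusted p = 0.119) and 3.22, 3.09 and 2.58 CPM at 24 h (log2FC 0.99, adjusted p = 0.0512). Neither difference was called, but both were called with the block, at 4 h (log2FC 0.95, adjusted p = 0.0459) and at 24 h (log2FC 0.98, adjusted p = 0.0303). The 4 h difference was also called in a fit of the compared groups alone (log2FC 0.88, adjusted p = 0.0263), and the 24 h difference without DMSO 24 h library 1 (log2FC 1.21, adjusted p = 0.0497), with DESeq2 size factors (log2FC 0.99, adjusted p = 0.0493), by the DESeq2 Wald test (log2FC 0.99, adjusted p = 0.023) and in a fit of the compared groups alone (log2FC 1.00, adjusted p = 0.034). With both agents the level was 14.9, 11.4 and 13.8 CPM at 4 h and 10.8, 10.9 and 4.78 CPM at 24 h. The DEX differences in BRM014 cells, log2FC 0.85 (adjusted p = 0.139) and 0.51 (adjusted p = 0.34), were not called. The first was called in a fit of the compared groups alone (log2FC 0.85, adjusted p = 0.0272).

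Without siRNA against AP-1, in siCtl cells of the AP-1 experiment, NR4A2 went from 4.89, 4.68 and 4.85 to 9.03, 6.70 and 11.6 CPM with DEX (log2FC 0.92, SE 0.257, adjusted p = 0.0372). That call was lost without siCtl DEX library 1 or 3 or siCtl vehicle library 1, 2 or 3 (log2FC 0.70 to 0.93, adjusted p = 0.1 to 0.218). In siFRA1 cells the levels were 5.34, 4.57 and 5.77 and 10.4, 6.66 and 11.0 CPM (log2FC 0.83, SE 0.252, adjusted p = 0.0662), without overlap and called with the block (log2FC 0.82, adjusted p = 5.41e-04) and without siFRA1 DEX library 2 (log2FC 1.03, adjusted p = 0.0176) and by the DESeq2 Wald test (log2FC 0.83, adjusted p = 0.0325). In siJUN cells 8.31, 4.70 and 9.07 and 12.5, 7.76 and 9.95 CPM overlapped (log2FC 0.45, interval -0.03 to 0.92).

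NR4A3 changed direction with the length of DEX treatment. In DMSO cells it went from 3.91, 3.70 and 3.26 to 5.07, 5.88 and 6.24 CPM after 4 h (log2FC 0.66, SE 0.175, adjusted p = 0.0134), and every DEX library was above every DMSO library. After 24 h it went from 5.17, 4.62 and 3.54 to 1.75, 1.46 and 2.05 CPM (log2FC -1.36, SE 0.190, adjusted p = 1.65e-05), with every DEX library below. The difference between these effects was called (log2FC -2.01, SE 0.258, adjusted p = 3.72e-05), and ranged over -2.16 to -1.86 between settings. The rise at 4 h was lost without DMSO with DEX 4 h library 3 or DMSO 4 h library 3 (log2FC 0.59, adjusted p = 0.0675 to 0.0728) and with all number 2 libraries left out (log2FC 0.66, adjusted p = 0.169).

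BRM014 alone lowered NR4A3 at 24 h and was not called at 4 h. At 4 h BRM014 libraries held 4.82, 4.07 and 3.48 CPM, overlapping DMSO (log2FC 0.18, interval -0.17 to 0.52). At 24 h they held 1.96, 1.77 and 1.87 CPM, all below DMSO (log2FC -1.25, SE 0.183, adjusted p = 2.16e-05). The difference between the times was called (log2FC -1.42, SE 0.255, adjusted p = 8.12e-04), a call lost with all number 2 libraries left out (log2FC -1.36, adjusted p = 0.0541). With BRM014 present, DEX gave 4.23, 3.30 and 4.30 CPM at 4 h and 2.36, 2.47 and 1.70 CPM at 24 h, with log2FC -0.06 (interval -0.40 to 0.28) and 0.23 (interval -0.15 to 0.61). The BRM014 by DEX interaction was called at 24 h (log2FC 1.59, SE 0.271, adjusted p = 7.82e-04) and lost with all number 2 libraries left out (log2FC 1.30, adjusted p = 0.137). In siCtl cells of the GATA6 experiment NR4A3 overlapped between vehicle (16.1, 11.2 and 12.8 CPM) and 2 h of DEX (12.1, 10.1 and 9.69 CPM, log2FC -0.32, SE 0.326, adjusted p = 0.621), and was called with the block (log2FC -0.35, adjusted p = 0.0395). The block also called the siGATA6 DEX difference (log2FC -0.58, adjusted p = 7.69e-04, against an adjusted p of 0.3 without it) and the siGATA6 against siCtl difference with DEX (log2FC -0.34, adjusted p = 0.0463, against 0.536). Its levels in the AP-1 experiment lay between 5.30 and 13.3 CPM in all 18 libraries, and none of the 5 main effects or 2 interactions was called.

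NR4A1 was called in 1 of the 23 comparisons. In DMSO cells it rose from 8.13, 9.92 and 10.2 to 14.2, 15.7 and 20.1 CPM after 4 h of DEX (log2FC 0.82, SE 0.228, adjusted p = 0.0183), without overlap. The call was lost without DMSO with DEX 4 h library 3 or DMSO 4 h library 1 (log2FC 0.67 to 0.73, adjusted p = 0.0939 to 0.114) and with all number 2 libraries left out (log2FC 0.91, adjusted p = 0.156). At 24 h the levels were 11.3, 9.85 and 6.43 CPM without and 10.6, 9.45 and 5.70 CPM with DEX (log2FC -0.09, interval -0.54 to 0.37), with number 3 lowest in each. The difference between the DEX effects (log2FC -0.91, adjusted p = 0.0904) was called without DMSO 24 h library 3 (log2FC -1.11, adjusted p = 0.0297). In siCtl cells 2 h of DEX gave 10.1, 10.1 and 8.84 CPM against 13.0, 10.6 and 14.4 CPM (log2FC -0.41, SE 0.156, adjusted p = 0.0922), below without overlap and called with the block (log2FC -0.42, adjusted p = 0.00667) and without siCtl vehicle library 2 (log2FC -0.52, adjusted p = 0.0338), by the DESeq2 Wald test (log2FC -0.40, adjusted p = 0.0489), with library totals alone as the scale (log2FC -0.46, adjusted p = 0.0497) and in a fit of the compared groups alone (log2FC -0.41, adjusted p = 0.016). In siGATA6 cells the block also called the DEX difference (log2FC -0.30, adjusted p = 0.0251), as did the fit without siGATA6 vehicle library 2 (log2FC -0.46, adjusted p = 0.0105). siGATA6 against siCtl was called with the block in DEX (log2FC 0.35, adjusted p = 0.0166) and in a fit of the compared groups alone (log2FC 0.36, adjusted p = 0.0227), and with vehicle without siGATA6 vehicle library 2 (log2FC 0.41, adjusted p = 0.0204). NR4A1 in siJUN cells with vehicle spread over 15.5, 9.31 and 26.9 CPM (log2FC 0.72, interval 0.17 to 1.27), with number 2 lowest. The siJUN difference was called without siJUN vehicle library 2 (log2FC 1.02, adjusted p = 0.00885), and the DEX difference in siJUN cells was called without siJUN vehicle library 2 (log2FC -0.80, adjusted p = 0.0292).

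**Figure D4:**
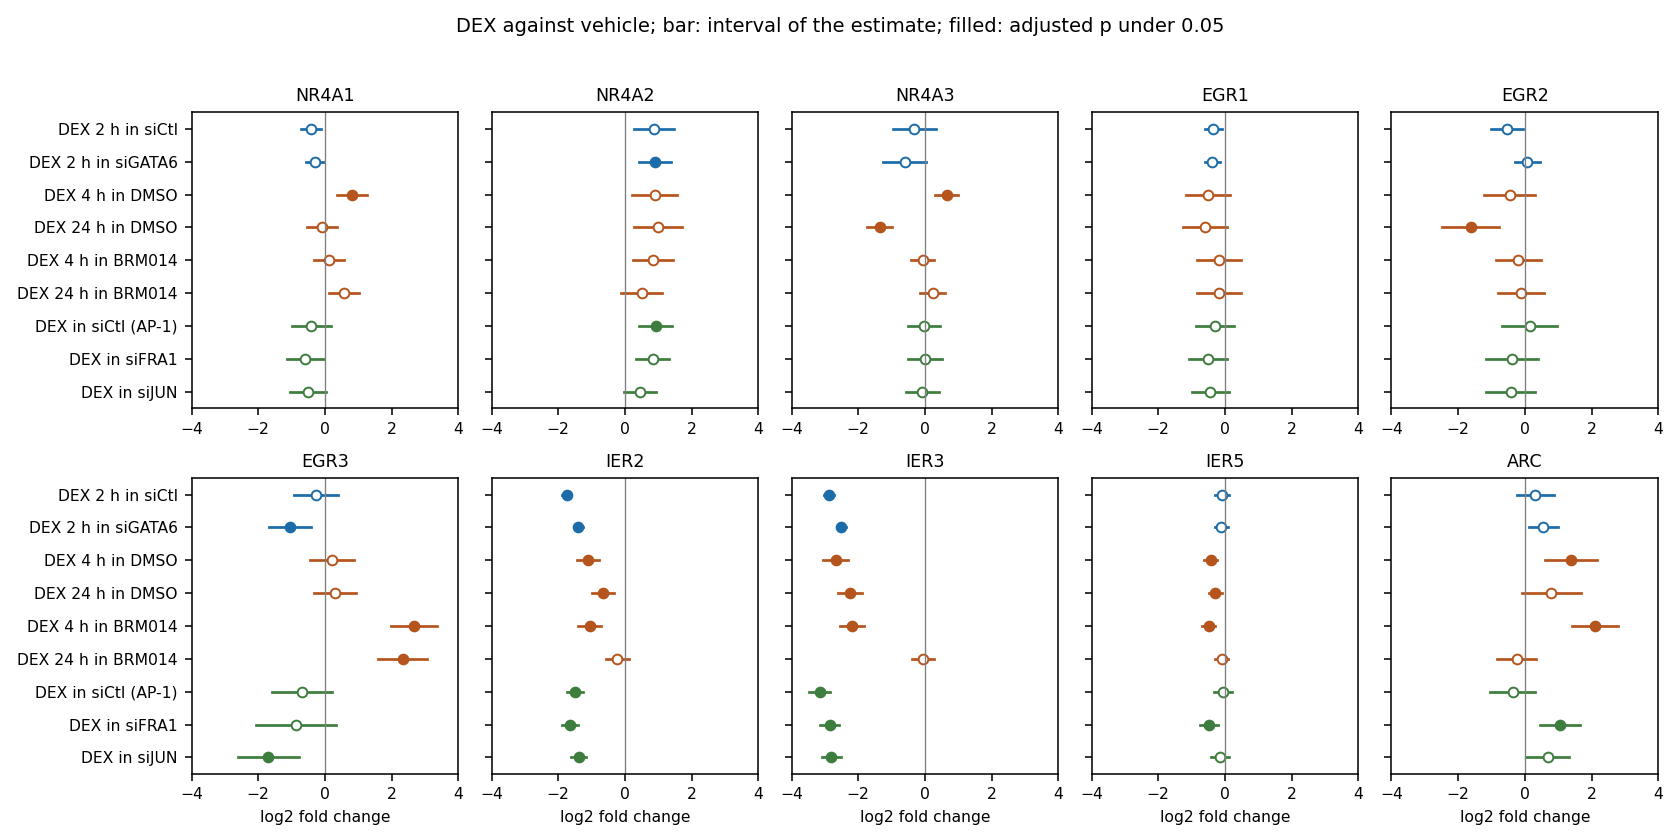
Log2 fold change of DEX against vehicle for each gene in the 9 DEX comparisons (blue GATA6, orange BRM014, green AP-1 experiment), with bars of the 95% interval and filled points where the adjusted p was under 0.05. EGR1, IER2, IER3 and IER5 are below 0 and NR4A2 is above 0 in all 9, while EGR3 lies on both sides.

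EGR1 was below vehicle in all 9 DEX comparisons, with log2FC between -0.59 and -0.18, and was called in none of them in the fit over all groups of each experiment. Some alternative settings, given beside the values, called it. In siCtl cells it was at 43.8, 34.6 and 42.5 CPM with vehicle and 31.6, 33.3 and 30.6 CPM with DEX, all lower (log2FC -0.34, SE 0.127, adjusted p = 0.103). It was called with the block (log2FC -0.35, adjusted p = 0.005) and without siCtl vehicle library 2 (log2FC -0.44, adjusted p = 0.0349), by the DESeq2 Wald test (log2FC -0.34, adjusted p = 0.0111), with library totals alone as the scale (log2FC -0.39, adjusted p = 0.0489) and in a fit of the compared groups alone (log2FC -0.34, adjusted p = 0.00415). In siGATA6 cells the levels were 71.0, 52.9 and 54.8 and 50.6, 45.7 and 41.6 CPM (log2FC -0.38, SE 0.119, adjusted p = 0.054), again all lower. They were called with the block (log2FC -0.37, adjusted p = 0.001) and without siGATA6 DEX library 1 or siGATA6 vehicle library 2 (log2FC -0.46 to -0.44, adjusted p = 0.0252 to 0.0438), by the DESeq2 Wald test (log2FC -0.37, adjusted p = 0.003) and with library totals alone as the scale (log2FC -0.41, adjusted p = 0.0253). The effect of siGATA6 itself was called, with vehicle (log2FC 0.55, SE 0.121, adjusted p = 0.00643) and with DEX (log2FC 0.52, SE 0.125, adjusted p = 0.0117), and in both states every siGATA6 library was above every siCtl library.

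EGR1 varied with the library number elsewhere. DMSO libraries at 24 h held 52.6, 44.3 and 24.5 CPM, BRM014 56.6, 48.0 and 27.5, DMSO with DEX 32.9, 31.7 and 15.6 and both agents 53.1, 43.0 and 20.4 CPM. Number 3 was the lowest in 4 of 4 groups, and none of the 24 h comparisons was called. Of the AP-1 libraries, number 2 was the lowest in 6 of 6 groups, for example at 54.02, 51.8 and 71.9 CPM in siCtl and 84.8, 59.5 and 101 CPM in siJUN cells with vehicle. With the block, the DEX differences were called in siFRA1 (log2FC -0.50, adjusted p = 0.0214) and siJUN cells (log2FC -0.46, adjusted p = 0.0221). At 4 h the BRM014 libraries (75.9, 62.0 and 62.9 CPM) all stood above the DMSO libraries (34.7, 35.3 and 32.5 CPM), a difference that was not called (log2FC 0.97, SE 0.340, adjusted p = 0.0905). It was called by the DESeq2 Wald test (log2FC 0.95, adjusted p = 0.0343) and in a fit of the compared groups alone (log2FC 0.97, adjusted p = 2.39e-04). DEX at 4 h in DMSO cells gave 21.2, 23.9 and 27.5 CPM (log2FC -0.50, adjusted p = 0.492), called in a fit of the compared groups alone (log2FC -0.50, adjusted p = 0.00549).

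EGR2, which in the mouse is needed for myelination and hindbrain patterning, was higher with GATA6 siRNA. With DEX the siGATA6 libraries held 6.26, 5.16 and 5.07 CPM and the siCtl libraries 1.95, 2.12 and 2.49 CPM (log2FC 1.31, SE 0.223, adjusted p = 2.35e-04), a 2.47-fold difference without overlap. With vehicle the levels were 6.11, 3.94 and 5.60 and 2.54, 2.17 and 4.18 CPM (log2FC 0.69, SE 0.206, adjusted p = 0.0191), and here siCtl library 3 lay above siGATA6 library 2. That call was lost without siCtl vehicle library 1 or 2 or siGATA6 vehicle library 1 or 3 (log2FC 0.52 to 0.63, adjusted p = 0.0663 to 0.0818) and in a fit of the compared groups alone (log2FC 0.68, adjusted p = 0.0556). In DMSO cells EGR2 went from 2.80, 2.09 and 1.12 to 0.690, 0.618 and 0.608 CPM after 24 h of DEX (log2FC -1.63, SE 0.430, adjusted p = 0.00758), and the call was lost without DMSO 24 h library 1 (log2FC -1.29, adjusted p = 0.0549) and with all number 2 libraries left out (log2FC -1.56, adjusted p = 0.119). EGR2 held only 37 counts over these 3 DEX libraries together. At 4 h it went from 1.73, 2.07 and 1.57 to 1.43, 1.02 and 1.49 CPM (log2FC -0.46, interval -1.22 to 0.31), not called. With BRM014 at 24 h DEX gave 2.91, 2.33 and 1.22 against 3.01, 3.05 and 1.07 CPM (log2FC -0.12, interval -0.82 to 0.58). The 24 h interaction was not called (log2FC 1.51, adjusted p = 0.128), and was called without DMSO 24 h library 3 (log2FC 1.81, adjusted p = 0.0493). BRM014 at 4 h gave 3.95, 2.39 and 3.07 CPM (log2FC 0.79, adjusted p = 0.202), called in a fit of the compared groups alone (log2FC 0.78, adjusted p = 0.0437).

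EGR3, which in mice is needed for muscle spindles, rose with DEX in BRM014 cells and fell with DEX in siGATA6 and siJUN cells. With BRM014 for 4 h it rose from 0.920, 0.823 and 0.445 to 5.29, 3.87 and 4.60 CPM with DEX (log2FC 2.66, SE 0.350, adjusted p = 2.36e-05). At 24 h with BRM014 it rose from 0.786, 0.603 and 0.159 to 2.87, 3.07 and 1.75 CPM (log2FC 2.33, SE 0.376, adjusted p = 1.67e-04). In DMSO cells the levels overlapped, at 1.91, 1.63 and 1.28 and 1.38, 2.16 and 2.05 CPM at 4 h (log2FC 0.21, interval -0.45 to 0.87) and at 2.84, 1.86 and 1.46 and 2.67, 2.69 and 2.20 CPM at 24 h (log2FC 0.31, interval -0.32 to 0.93). The BRM014 by DEX interaction was called at 4 h (log2FC 2.45, SE 0.490, adjusted p = 0.006) and at 24 h (log2FC 2.02, SE 0.497, adjusted p = 0.0151). The 4 h interaction was lost with all number 2 libraries left out (log2FC 2.79, adjusted p = 0.132). The 24 h interaction was lost without DMSO 24 h library 1 (log2FC 1.71, adjusted p = 0.0545), with all number 2 libraries left out (log2FC 2.12, adjusted p = 0.206) and in a fit of the compared groups alone (log2FC 2.08, adjusted p = 0.0797).

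BRM014 without DEX lowered EGR3 at 24 h (log2FC -1.999, SE 0.378, adjusted p = 3.49e-04), when its 3 libraries held 18, 15 and 4 counts against 77, 42 and 43 in DMSO cells. At 4 h the BRM014 libraries were also all below DMSO, but not called (log2FC -1.17, SE 0.378, adjusted p = 0.0604), and were called by the DESeq2 Wald test (log2FC -1.19, adjusted p = 0.018) and in a fit of the compared groups alone (log2FC -1.17, adjusted p = 0.0257). In siGATA6 cells EGR3 fell with 2 h of DEX, from 5.07, 2.37 and 4.88 to 1.37, 2.22 and 2.08 CPM (log2FC -1.06, SE 0.322, adjusted p = 0.0402). The groups did not overlap, but the call was lost without siGATA6 DEX library 1, 2 or 3 or siGATA6 vehicle library 1 or 3 (log2FC -1.15 to -0.89, adjusted p = 0.0832 to 0.138) and with no filter on low counts (log2FC -1.05, adjusted p = 0.103). In siCtl cells it was at 3.62, 1.69 and 3.60 and 1.95, 2.90 and 2.65 CPM (log2FC -0.28, interval -0.94 to 0.38). In siJUN cells it went from 4.62, 2.01 and 9.37 to 1.39, 0.977 and 2.65 CPM (log2FC -1.70, SE 0.466, adjusted p = 0.0358) with overlapping groups. That call was lost without siJUN DEX library 1 or 2 or siJUN vehicle library 1 or 3 (log2FC -1.78 to -1.03, adjusted p = 0.0712 to 0.208), with no filter on low counts (log2FC -1.70, adjusted p = 0.074) and in a fit of the compared groups alone (log2FC -1.70, adjusted p = 0.264). siFRA1 libraries with vehicle held 1.16, 1.06 and 2.16 CPM, all below the 3.81, 3.20 and 5.02 CPM of siCtl but not called (log2FC -1.44, SE 0.484, adjusted p = 0.0647). They were called with the block (log2FC -1.48, adjusted p = 2.62e-04) and by the DESeq2 Wald test (log2FC -1.45, adjusted p = 0.0262) and in a fit of the compared groups alone (log2FC -1.43, adjusted p = 0.00998). siGATA6 against siCtl with vehicle (log2FC 0.40, adjusted p = 0.388) was called without siGATA6 vehicle library 2 (log2FC 0.70, adjusted p = 0.04).

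ARC, the synaptic cytoskeletal gene, had the largest fold change among the calls, from a level of few reads. BRM014 for 24 h brought it from 0.184, 0.533 and 0.579 CPM (5, 12 and 17 counts) to 4.41, 4.22 and 5.56 CPM (101, 105 and 140 counts), a 10.9-fold rise (log2FC 3.44, SE 0.372, adjusted p = 4.59e-07). Every BRM014 library lay far above every DMSO library. At 4 h BRM014 libraries at 1.14, 0.353 and 1.17 CPM overlapped DMSO libraries at 0.800, 0.397 and 0.524 CPM (log2FC 0.59, interval -0.25 to 1.43). The difference between the times was called (log2FC 2.85, SE 0.587, adjusted p = 0.003), with a range of 2.44 to 3.16 over the settings. DEX for 4 h raised ARC in DMSO cells to 2.00, 0.931 and 1.67 CPM (log2FC 1.39, SE 0.402, adjusted p = 0.0243) and in BRM014 cells to 4.03, 3.75 and 3.54 CPM (log2FC 2.11, SE 0.348, adjusted p = 3.35e-04). The first of these calls was lost without DMSO with DEX 4 h library 1 or 3 or DMSO 4 h library 2 or 3 (log2FC 1.16 to 1.34, adjusted p = 0.0818 to 0.135). At 24 h DEX gave 0.690, 0.751 and 0.836 CPM in DMSO cells (log2FC 0.79, adjusted p = 0.225) and 4.88, 4.00 and 3.03 CPM in BRM014 cells (log2FC -0.25, interval -0.82 to 0.33), neither of them called.

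GATA6 siRNA also raised ARC. DEX-treated libraries held 2.39, 1.76 and 2.12 CPM in siCtl and 4.57, 3.87 and 4.46 CPM in siGATA6 cells (log2FC 1.05, SE 0.242, adjusted p = 0.00344), without overlap. With vehicle it was at 2.23, 1.02 and 1.74 and 4.20, 1.93 and 2.91 CPM (log2FC 0.82, SE 0.263, adjusted p = 0.0287), with overlap, and that call was lost without siCtl vehicle library 2 or 3 or siGATA6 vehicle library 1 or 3 (log2FC 0.53 to 0.88, adjusted p = 0.0596 to 0.153) and in a fit of the compared groups alone (log2FC 0.81, adjusted p = 0.0705). DEX in siGATA6 cells was not called (log2FC 0.55, adjusted p = 0.108) and was called with the block (log2FC 0.56, adjusted p = 0.00708) and without siGATA6 vehicle library 1 (log2FC 0.83, adjusted p = 0.00918) and with no filter on low counts (log2FC 0.56, adjusted p = 0.0478). In siFRA1 cells DEX raised ARC from 1.69, 1.88 and 1.04 to 4.00, 3.13 and 2.49 CPM (log2FC 1.06, SE 0.307, adjusted p = 0.0496), a call lost without siFRA1 DEX library 1 or 2 or siFRA1 vehicle library 1, 2 or 3 (log2FC 0.84 to 1.23, adjusted p = 0.0586 to 0.284), with DESeq2 size factors (log2FC 1.05, adjusted p = 0.0516), with library totals alone as the scale (log2FC 1.02, adjusted p = 0.0691), with no filter on low counts (log2FC 1.06, adjusted p = 0.0623) and in a fit of the compared groups alone (log2FC 1.06, adjusted p = 0.0958). In siCtl cells of that experiment it was at 1.81, 2.30 and 1.13 and 1.47, 1.32 and 1.27 CPM (log2FC -0.37, interval -1.04 to 0.30), and the siFRA1 by DEX interaction was not called (log2FC 1.43, interval 0.53 to 2.33).

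Other immediate early genes were listed beside these changes. The list was chosen with earlier results of these data known, so its counts and medians depend on which genes it holds. Of 36 further genes of this class, 16 rose and 12 fell after 2 h of DEX in siCtl cells (all genes 8.74% and 7.2%). Their median log2FC was 0.43, against 0.00 over all genes and -0.33 over the 10. The MAP kinase phosphatase gene DUSP1 (log2FC 2.63), the NF-kB inhibitor gene NFKBIA (1.73) and CSRNP1 (1.73) rose most. The AP-1 gene FOSL1 (log2FC -1.82), the polo-like kinase gene PLK2 (-1.75) and the ERK phosphatase gene DUSP6 (-1.60) fell most. At 4 h in DMSO cells 14 rose and 9 fell (all genes 7.77% and 4.78%), with a median log2FC of 0.35 (the 10 -0.11, all genes -0.01). FOS itself was up (log2FC 2.36). At 24 h in DMSO cells 13 rose and 10 fell (all genes 12.6% and 13%), with a median log2FC of -0.15 (the 10 -0.44, all genes -0.02). In BRM014 cells DEX gave 14 rises and 7 falls at 4 h (all genes 3.79% and 2.33%) and 14 and 5 at 24 h (all genes 7.55% and 6.21%). In the AP-1 experiment the counts were 15 and 8 in siCtl (all genes 3.46% and 2.05%), 15 and 8 in siFRA1 (all genes 3.17% and 1.76%) and 16 and 7 in siJUN cells (all genes 3.46% and 2.23%).

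**Figure D5:**
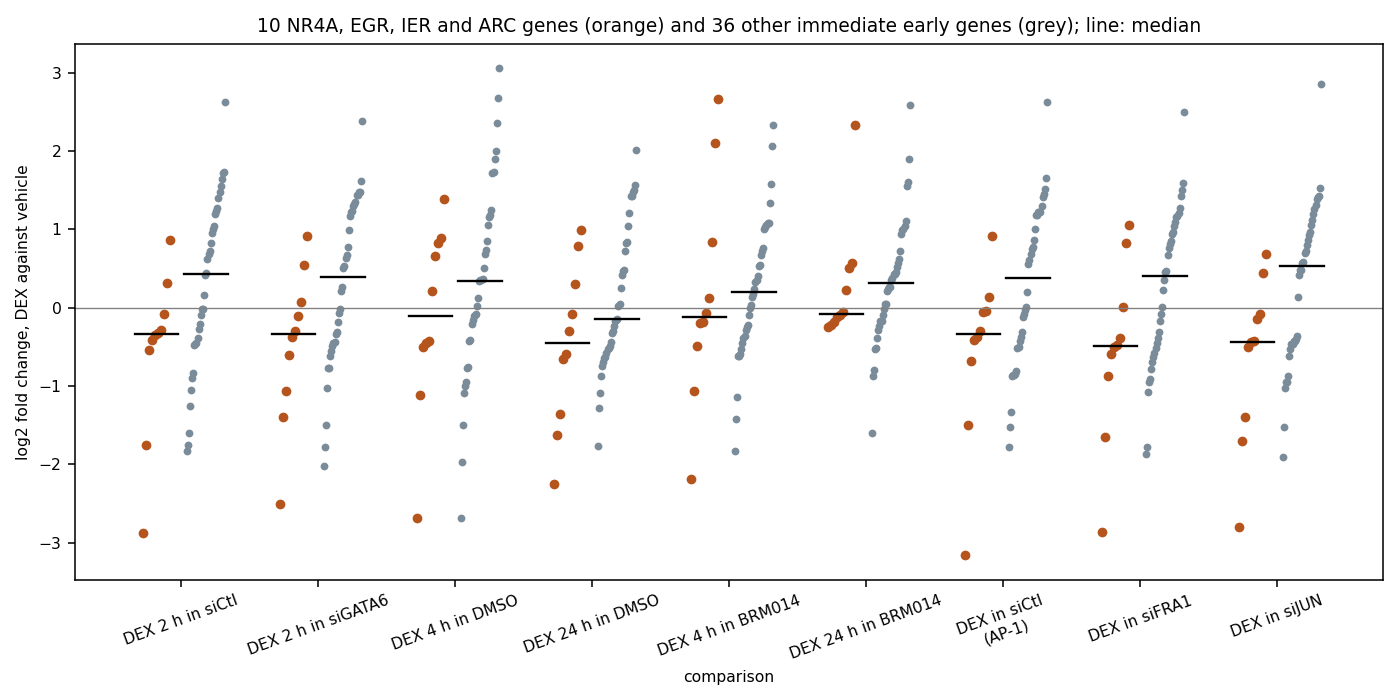
Log2 fold change of DEX against vehicle in the 9 DEX comparisons, for the 10 genes (orange) and 36 other immediate early genes (grey), with medians as black lines. The median of the 10 is below 0 in every comparison, and that of the others is above 0 in all but DEX for 24 h in DMSO cells.

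With GATA6 siRNA the 36 listed genes were called in 1 direction only. With vehicle 23 of 36 rose and 0 fell (all genes 12.1% higher and 11.6% lower). The median log2FC was 0.39 (the 10 0.48, all genes 0.01). With DEX 21 rose and 0 fell (all genes 11.1% and 11.5%), with a median log2FC of 0.33 (the 10 0.51, all genes 0.00). The shear-responsive KLF2 (log2FC 0.97), the kinase gene SIK1 (0.92) and the nuclear ERK phosphatase gene DUSP5 (0.77) rose most with vehicle. With DEX these were DUSP5 (1.49), DUSP2 (1.06) and FOSL1 (1.04). Both comparisons have groups of the GATA6 experiment in which RN7SK and RNA45S5 also differed, as given above. BRM014 without DEX gave 11 rises and 6 falls at 4 h (all genes 4.61% and 4.06%), with a median log2FC of 0.15 (the 10 0.24). At 24 h it gave 4 rises and 15 falls (all genes 15.1% and 16.4%), with a median log2FC of -0.25 (the 10 -0.21, all genes 0.01). DUSP2 (-2.25), FOSL1 (-1.94) and DUSP5 (-1.77) were lowest. siFRA1 with vehicle gave 5 rises and 2 falls, SRF among the latter (log2FC -0.97), where 5.54% of all genes rose and 5.28% fell. The median log2FC was 0.19 (the 10 0.09, all genes 0.00). siJUN gave 7 and 4 (all genes 3.68% and 3.14%), with a median log2FC of 0.16 (the 10 0.42, all genes 0.00).

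Of 20 genes for signalling proteins and transcription factors upstream of the class, 4 rose and 2 fell with 2 h of DEX in siCtl cells. Among all genes 8.74% rose and 7.2% fell, and the median log2FC was -0.01 (all genes 0.00). The SRF co-activator gene MKL1 (log2FC 0.80) and the SRF partner ELK3 (0.66) rose, and MEF2D fell (-0.50). MKL1 also rose at 4 h in DMSO (1.30), at 4 h in BRM014 cells (1.09) and in siCtl cells of the AP-1 experiment (0.85). With siGATA6 and vehicle MKL1 fell (log2FC -0.27). BRM014 raised MEF2D at 4 h (0.75) and 24 h (0.73). Among 6 tested partners and relatives of 7 listed, the EGR co-repressor gene NAB2 fell with 2 h of DEX in siCtl (log2FC -0.78) and siGATA6 cells (-0.48). RXRA, whose product dimerises with NR4A1 and NR4A2, rose with DEX in siCtl (log2FC 0.58) and siGATA6 cells (0.46), at 4 h in DMSO cells (1.16) and at 24 h (0.69).

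How alike the 10 genes were was described by correlations of log2(CPM + 1) over the 54 libraries, each experiment centred on its own mean. The libraries share groups, treatments and numbers, so no test is given. IER2 and IER3 were the most alike pair (r = 0.94 over all, and 0.99, 0.87 and 0.96 within GATA6, BRM014 and AP-1 libraries). EGR1 and EGR2 came next (r = 0.81 over all, and 0.83, 0.87 and 0.75). NR4A2 and ARC followed at 0.67 over all, but at 0.23 in the AP-1 experiment. NR4A2 had negative correlations with IER3 (r = -0.37) and IER2 (-0.34). Among the 13360 genes tested in all experiments, the most like IER3 was PDE4B (r = 0.95), and IER3 itself was the most like IER2. EGR1 was most like MAFG (0.82) and then EGR2, NR4A2 was most like AXIN1 (0.83), ARC most like RIMS2 (0.77) and NR4A3 most like SOCS2 (0.76). NR4A1 was most like ZNF274 (0.73) and IER5 most like RDH10 (0.74). EGR3 had the weakest likeness, to MIDN (0.65).

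The library number recurred across these genes. Number 2 held the lowest level of its group in 44 of 60 combinations of gene and group in the AP-1 experiment (73.3%), and number 3 in 29 of 40 among the 24 h groups of the BRM014 experiment (72.5%). In the 4 h groups the most frequent was number 2, with 16 of 40, and in the GATA6 experiment number 2, with 20 of 40. At 24 h NR4A1, EGR1, EGR2, EGR3 and IER2 were each lowest in number 3 in 4 of 4 groups. These counts were not made over all genes tested, so they do not show a trait of these genes in particular. Over all genes tested, deviations from group means also correlated between same-numbered libraries. The median r was 0.24 in the AP-1, 0.15 in the BRM014 and 0.16 in the GATA6 experiment.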

How the data were processed

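Gene-level raw read counts were deposited by the authors, 1 table per library, made with bcl2fastq, SAMtools and featureCounts on GRCh38 per the submitters' processing notes, which also name DESeq2. The labels' protocols give rRNA depletion and paired-end sequencing for all libraries, while the molecule label of the AP-1 libraries is polyA RNA. One table equal to another was not used. Counts of each experiment were fitted over all its groups with edgeR 4.0.16 (R 4.3.3, limma 3.58.1): filterByExpr, TMM, robust dispersions and quasi-likelihood tests, and Benjamini-Hochberg adjusted p-values across every gene tested. SE is the log2FC divided by the root of F. Intervals are normal 95% intervals. Alternatives were DESeq2 1.42.0 (size factors, Wald test), library totals alone, no filter on low counts, the compared groups alone, a replicate block and each library left out, and, chosen after seeing the data, all number 2 libraries of the BRM014 experiment left out. Replicate numbers were taken as pairing the libraries in the 11 comparisons where every same-numbered pair of deviations from group means correlated over 0.1. The main fits held group means only, so their calls did not use this pairing. Only the replicate block, an alternative setting, did. Replicates differed beyond counting noise (chi-square per degree of freedom 3.04 to 106.3 over 54 pairs), and p-values measure the spread between these libraries. Members and lists were chosen with earlier results of these data known. From each list, up to 3 called genes per direction with the largest change could be named.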

Additional observations from a re-analysis of the deposited data

Results flagged for a closer look

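These results are listed because the effect of 1 treatment differed with another treatment or time by a test of the difference itself (edgeR's quasi-likelihood test). The DEX effect on EGR3 was higher with BRM014 than with DMSO at 4 h (log2FC 2.45, SE 0.490, adjusted p = 0.006). At 24 h the signed log2FC of DEX was higher with BRM014 for NR4A3 (log2FC 1.59, SE 0.271, adjusted p = 7.82e-04), EGR3 (log2FC 2.02, SE 0.497, adjusted p = 0.0151) and IER3 (log2FC 2.20, SE 0.249, adjusted p = 9.45e-06). NR4A3 and IER3 fell with DEX in DMSO cells at that time, and their DEX difference with BRM014 was not called. EGR3 rose with DEX in BRM014 cells and was not called in DMSO cells. In DMSO cells the DEX effect on NR4A3 was lower at 24 h than at 4 h (log2FC -2.01, SE 0.258, adjusted p = 3.72e-05). The effect of BRM014 alone was lower at 24 h than at 4 h for NR4A3 (log2FC -1.42, SE 0.255, adjusted p = 8.12e-04) and IER3 (log2FC -1.11, SE 0.244, adjusted p = 0.0051), and higher for ARC (log2FC 2.85, SE 0.587, adjusted p = 0.003). Calls for EGR3 at 4 h (adjusted p = 0.132) and 24 h (adjusted p = 0.206) were lost with all number 2 libraries left out. So was that for NR4A3 at 24 h (adjusted p = 0.137). The BRM014 effects on NR4A3 (adjusted p = 0.0541) and IER3 (adjusted p = 0.095) were lost there too. The compared groups alone lost EGR3 at 24 h (adjusted p = 0.0797) and the BRM014 effect on IER3 (adjusted p = 0.0534). EGR3 at 24 h was also lost without DMSO 24 h library 1 (adjusted p = 0.0545).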

How the results depend on the processing

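No value of the 10 genes reversed sign among called values under any alternative run. Of the 230 values of gene and comparison, 1 lost and 3 gained a call with DESeq2 size factors, 1 and 3 with library totals alone, 0 and 13 with the DESeq2 Wald test, 6 and 3 with no filter on low counts, and 11 and 16 in a fit of the compared groups alone. Without the number 2 libraries of the BRM014 experiment 11 of 110 values lost a call, and among 1800 values with 1 library left out 53 lost and 21 gained one.

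The number of the 10 genes called moved as follows. After 2 h of DEX in siCtl cells 2 became 4 with library totals alone, 5 with DESeq2 and 5 in the compared groups alone. The siGATA6 interaction went from 0 to 1 with no filter. Without the number 2 libraries, DEX for 24 h in DMSO cells gave 3 calls, BRM014 alone 0 at 4 h, the BRM014 interaction 0 at 4 h and 1 at 24 h, and the BRM014 effect over time 1. BRM014 alone at 4 h went from 1 to 3 with DESeq2 and to 5 in the compared groups alone. siJUN with vehicle went from 0 to 1 with DESeq2 size factors, DESeq2, no filter or the compared groups alone, and DEX in siFRA1 cells to 2 in the compared groups alone. With 1 library left out, counts ranged over 2 to 4 (DEX in siCtl), 2 to 5 (DEX in siGATA6), 2 to 7 (siGATA6 with vehicle), 6 to 7 (with DEX), 0 to 1 (interaction), 3 to 6 (DEX 4 h in DMSO), 4 to 5 (24 h), 5 to 6 (BRM014 24 h), 2 to 4 (its interaction with DEX), 1 to 2 (DEX effect over time), 3 to 4 (BRM014 effect over time), 2 to 3, 2 to 4 and 2 to 4 (DEX in siCtl, siFRA1 and siJUN of the AP-1 experiment), 1 to 2 (siFRA1) and 0 to 2 (siJUN).

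With the replicate block 0 of 230 values lost and 31 gained a call. Counts that moved by over 1.5 times, or from 0, became 6 for DEX in siCtl, 8 for DEX in siGATA6, 2 for the siGATA6 interaction, 3 for BRM014 alone at 4 h and 5 for siJUN with vehicle. Smaller gains with the block are not listed. In the last 3 comparisons not every same-numbered pair correlated over 0.1 (lowest r = 0.0897, 0.0433 and 0.0539). The number was therefore not taken as pairing there, although 16 of 18 pairs passed for the siGATA6 interaction. Calls over all genes rose with the block too, from 13 and 34 to 90 and 162 for the siGATA6 interaction, from 671 and 591 to 957 and 840 for BRM014 at 4 h and from 503 and 429 to 1236 and 1314 for siJUN. The block moved the count over all genes by 1.5 times or more in 10 of 23 comparisons, in 2 of them from 0.

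Over all genes, library totals alone turned 1215 higher and 1001 lower calls for DEX in siCtl into 972 and 1476, and moved this split by over 10 percentage points in 7 other comparisons. It went from 1109 and 1106 to 949 and 1488 for DEX in siGATA6, from 1130 and 695 to 960 and 1049 for DEX at 4 h in DMSO, from 1098 and 903 to 924 and 1264 for DEX at 24 h in BRM014, and from 2198 and 2391 to 3672 and 1785 for BRM014 at 24 h. It went from 380 and 914 to 702 and 827 for the DEX effect over time, from 420 and 953 to 969 and 722 for the BRM014 effect over time, and from 472 and 280 to 383 and 371 for DEX in siCtl of the AP-1 experiment. With library totals alone the median log2FC of all genes moved by at most 0.14, for the BRM014 effect over time. Leaving out the number 2 libraries changed the count of all genes called by 1.51 to 4.22 times in 10 of 11 comparisons. It moved the split from 671 and 591 to 158 and 225 for BRM014 at 4 h and from 380 and 914 to 45 and 336 for the DEX effect over time. The compared groups alone changed the count by 1.57 to 2.26 times in 4 comparisons, such as from 1827 and 1890 to 787 and 1001 for DEX at 24 h in DMSO. They moved the split to 760 and 1076 for BRM014 at 4 h, and to 372 and 161 of the 14547 genes for the BRM014 interaction at 24 h, where 3.77% were higher and 2.78% lower in the fit over all groups. No filter changed the count by 2.02 times in 1 comparison and the DESeq2 Wald test by 1.74 times or from 0 in 2. EGR3 and ARC rested on as few as 4 and 5 counts in a library, and EGR2 on 37 counts over the 3 DMSO libraries with DEX for 24 h. No alternative depth was tried.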
